A study of Homo sapiens with 12 samples.

Results

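Of the 740 endogenous genes of a cancer progression panel, 277 (37.4%) stood at the floor of the deposited values in untreated HCT-116 cells. These 277 genes are described here. They were chosen by a control mean equal to 33 normalized counts, the lowest value that the deposited tables hold. ITGB3 meets the same condition but was set aside by the rule, and the panel's 30 housekeeping genes were not considered. Because the control values chose the members, a member could only stay at the floor or lie above it after a treatment, so every rise below is a description and not a test. A gene at the floor was not measured as absent, since the tables show no value below the floor.

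HCT-116 is an established colorectal carcinoma line of epithelial origin. RNA of 12 samples was counted with the NanoString nCounter system, in which a colour-coded probe is hybridised to each transcript and counted without amplification. The samples fall into 4 groups of 3, namely untreated control, heteronemin, tetrac, and both agents together (the combination), each treatment lasting 24 h. The first agent is a terpenoid made by sea sponges, and the second, tetraiodothyroacetic acid, is a deaminated analogue of thyroid hormone. Nothing in the labels says that replicates came from separate cultures, so a p-value here reflects sample-to-sample spread alone, possibly of technical origin. Doses and any vehicle in the control are not stated. Each sample's depth is unknown, because the tables hold only the authors' mean of each group, a fold change and a p-value printed to 2 decimals.

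Tumour progression depends on genes that epithelial cells seldom use themselves. Fibroblasts make most of the collagens and small leucine-rich proteoglycans of the matrix, and endothelial cells carry the receptors for vascular growth factors and angiopoietins. Matrix metalloproteinases cut the matrix, chemokines guide migrating cells, and transcription factors such as TWIST1, SNAI2 and ZEB2 repress epithelial genes during epithelial-mesenchymal transition (EMT). A panel built around these processes therefore holds many genes of stroma, vessel and blood.

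The line's epithelial label was first set against its markers. Of 34 epithelial genes measured, 30 were above the floor in control, and EPCAM, an epithelial adhesion molecule, had an authors' mean of 1814 in control, 1403 with heteronemin, 1581 with tetrac and 1520 with both agents. The 4 epithelial genes among the members were CEACAM5, CLDN1, KRT14 and MUC1. CEACAM5, the carcinoembryonic antigen, read 50.3, 44.7 and 42.1 after heteronemin, tetrac and the combination. MUC1, a membrane mucin, left the floor after tetrac alone, at 35.03. CLDN1, a tight junction protein, and KRT14, a basal keratin, stayed at 33 in all 4 groups. The authors' means of PTPRC, the pan-leukocyte marker CD45, were 33 in control and 41.1, 37.9 and 38.9 in the treated groups in that order. Of 19 blood and immune markers, 12, PTPRC among them, were at the floor in control. The others were above it, and the highest, PRF1, read 201.

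All 4 genes of the WNT list were members, namely WNT5A, WNT5B and the secreted antagonists SFRP1 and SFRP2. Members made up 13 of 17 chemokines and chemokine receptors, 9 of 12 interleukins, interferons and their receptors, and 13 of 18 metalloproteinases of the MMP, ADAM and ADAMTS families. Of the structural families, 27 of 48 small leucine-rich and other matrix proteins, 6 of 13 collagens, 7 of 17 integrin subunits and 5 of 14 laminins and other basement membrane genes were members. Among growth factor families, 10 of 17 genes of the angiopoietin, TIE and VEGF system, 10 of 25 genes of the TGF-beta, BMP and activin list, 1 of 7 FGF genes and 1 of 4 Notch genes were at the floor. These shares stand beside the 37.4% of all endogenous genes, and none was tested.

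Markers of other cell types were at the floor more often than epithelial genes. Members were 17 of 24 endothelial markers, 21 of 31 fibroblast and stromal markers, 12 of 19 blood and immune markers and 7 of 10 neuronal, endocrine and glial genes, against 4 of 34 epithelial genes. The lists overlap in part, and 108 of the 277 members were in none of the 25 lists.

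**Figure D1:**
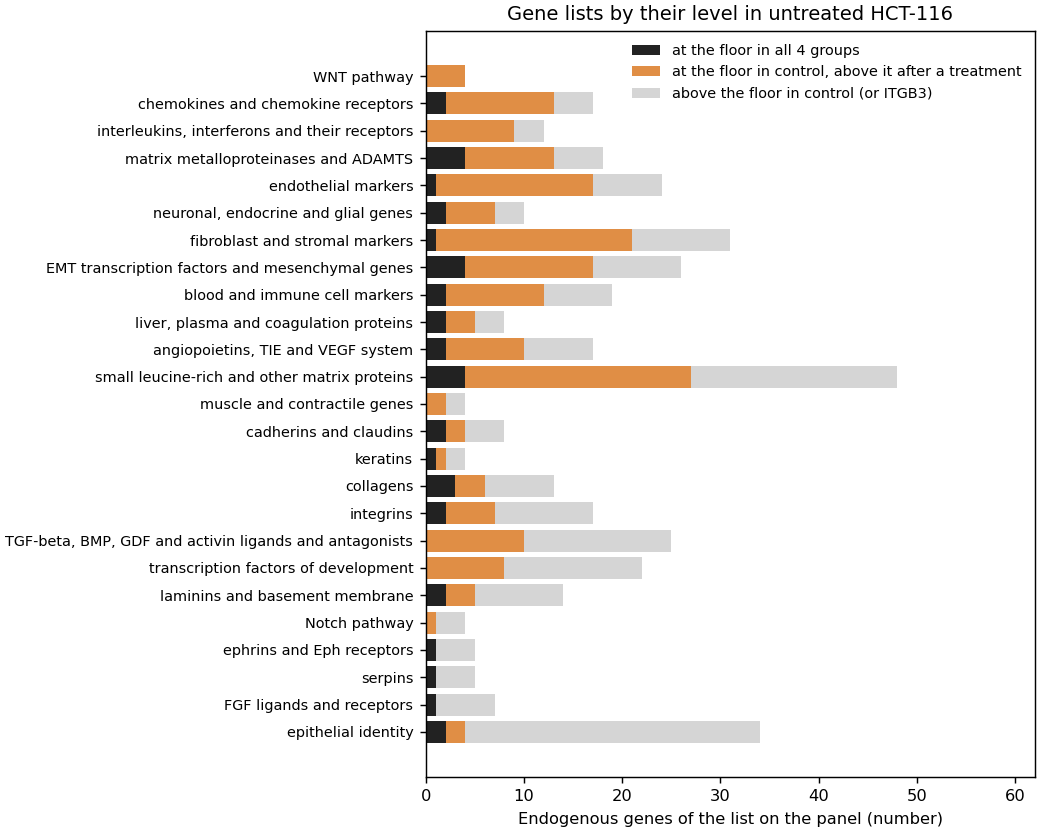
Number of endogenous panel genes in each of 25 gene lists (horizontal axis), split into genes at the floor in all 4 groups (black), genes at the floor in control but above it after at least 1 treatment (orange) and genes above the floor in control, with ITGB3 (grey). The lists are ordered by the share of members, from the WNT list with 4 of 4 to the epithelial list with 4 of 34.

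After treatment, 50 members stayed at 33 in all 4 groups and 187 were above the floor in all 3 treated groups. A further 20 were above it after heteronemin and after tetrac but not after the combination. Above the floor only after tetrac were 10 members (ECSCR, FLT4, GPR124, ITGB7, ITM2A, MUC1, PRKCB, RAMP2, SLC44A4 and TF). Only after heteronemin there were 4 (APOE, BCAS1, INHBA and SOX2), and only after the combination 2 (LY96 and SNAI2). Another 4 (EMILIN3, MMP12, PTPRB and ROBO4) read above the floor after tetrac and after the combination but not after heteronemin. These counts rest on authors' means that may lie only a little above 33, such as the 33.8 of INHBA, an activin subunit, after heteronemin.

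The 50 genes that never left the floor came from most of the families. Always at the floor were 3 of 6 collagen members, 2 of 5 basement membrane members and 4 of 27 matrix protein members, beside 50 of all 277. They were the type IV collagens COL4A1, COL4A2 and COL4A6, the laminin chain LAMA1, nidogen NID2, the crosslinking enzyme LOX, HAPLN1, ASPN and TGFBI. Proteases among them were MMP10, MMP24, ADAM8, ADAM28, the mast cell chymase CMA1 and TMPRSS4, and the protease inhibitor TFPI2 and the serpin SERPINF1 were at 33 as well. Adhesion and guidance genes included the neural cadherin CDH2, the integrin subunits ITGA11 and ITGB6, the guidance ligand SLIT2, the neuronal migration signal RELN, the netrin receptor DCC, the semaphorin receptor NRP2 and the Eph receptor EPHB1. The angiopoietin receptor TEK, the lymphatic podoplanin PDPN, the macrophage mannose receptor MRC1 and the chemokines CCL7 and CXCL13 also stayed at 33. So did ZEB2, a repressor of epithelial cadherin, and genes of differentiated organs such as ALB (serum albumin), AGT (angiotensinogen) and TSHR (the thyrotropin receptor). The others were BICC1, BMPER, CAMK2B, CLDN1, CNN1, FBP1, FGF18, IGFBP7, KRT14, NAP1L3, NDP, NOS2, P3H2, PEBP4, RORB and VAV3.

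COL4A1 and COL4A2 are a natural pair, since they lie head to head and are read outward from a shared stretch of DNA. That stretch, the 126 bases between their start sites on chr13:110307158-110307283 (GRCh38.p14, plus strand, RefSeq), is printed 5′ to 3′ because both genes that it separates were at 33 in every group. Capitals mark its 20 CpG dinucleotides.
COL4A1-COL4A2 shared stretch: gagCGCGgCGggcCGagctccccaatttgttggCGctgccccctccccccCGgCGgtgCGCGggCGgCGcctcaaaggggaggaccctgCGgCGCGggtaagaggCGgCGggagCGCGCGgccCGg

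How far above the floor a mean lay, and in how many libraries, differed between the treatments. After heteronemin 211 members (76.2%) were above the floor, with a median authors' mean of 55.5 among them and a highest of 124. After tetrac 221 members (79.8%) were above it, but with a median of 43.0 and a highest of 55.0. The combination had 193 (69.7%), a median of 43.1 and a highest of 64.8. A mean of at least 50 was reached by 143 members with heteronemin, 13 with tetrac and 20 with the combination. At least 66, which is 2 times the floor, was reached by 55 members after heteronemin and by 0 in the other groups. The share of all genes 2-fold above control is not given, so these counts are not read as particular to the members.

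Over all 277 members the median difference from control was 0.61, 0.32 and 0.30 after heteronemin, tetrac and the combination, on the log2 scale of the means without a pseudocount. The corresponding medians were 0.11, 0.02 and 0.09 over all 770 genes. Since a member cannot fall below its control value, the gap between these medians is built into the choice of members. Probes differ in efficiency, so the means compare groups for 1 gene and do not rank genes by abundance.

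**Figure D2:**
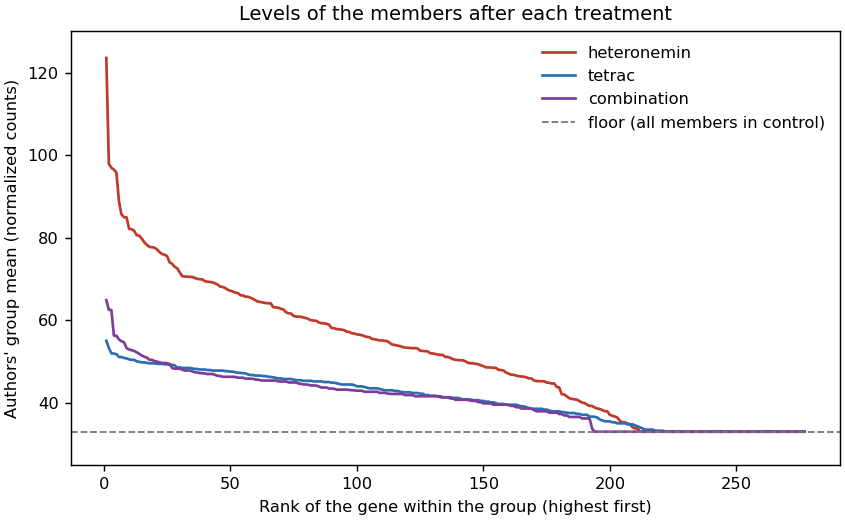
Authors' group mean in normalized counts (vertical axis) of the 277 members, ranked from highest to lowest within each treated group (horizontal axis), with the floor of 33 as a dashed line. The heteronemin curve lies above the others through most ranks, up to 124, while the others do not pass 55.0 (tetrac) and 64.8 (combination).

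The printed p-values can be read for the number of libraries behind a mean. When all 3 control libraries are at the floor and exactly 1 of 3 treated libraries is above it, a comparison with unequal variances gives 0.423 at any height of that library, which prints as 0.42. With 1 treated library still at the floor, the smallest p possible is 0.184, reached when the other libraries are equal. A p printed as 0.17 or less therefore needs all 3 treated libraries above the floor, if that comparison was used. The labels do not name the test behind the p-values, and this reading was drawn from the values themselves. Under equal variances a single library would give 0.374 instead. In each of the authors' deposited tables the highest p of any member was 0.42.

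In the authors' deposited table for tetrac, 210 of the 221 members above the floor (95.0%) had a p of 0.42. The table for the combination had 148 of 193 (76.7%), and the table for heteronemin 10 of 211 (4.74%). Read as above, most members were off the floor in a single library after tetrac and after the combination, and in more than 1 library after heteronemin. In the authors' deposited table for heteronemin, 127 members had a p of 0.18 to 0.20, near the smallest that 1 library at the floor allows, and 51 had a p of 0.17 or less. The corresponding counts in the authors' deposited tables were 1 and 0 for tetrac, and 6 and 7 for the combination. Shares of all genes at these cuts are not given, so the counts are not read as particular to the members.

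**Figure D3:**
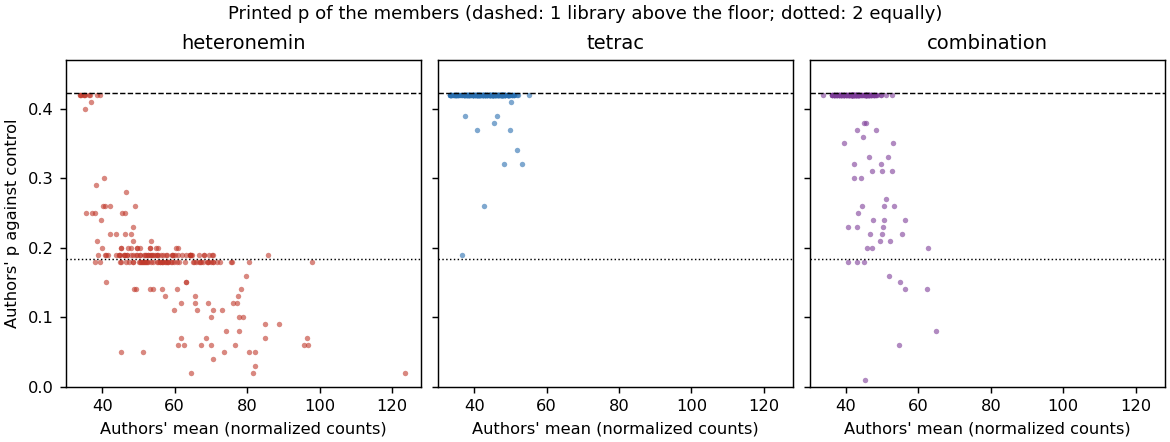
Authors' printed p against control (vertical axis) by authors' group mean in normalized counts (horizontal axis) for each member above the floor, 1 panel per treatment. The dashed line is the p of 1 library above the floor (0.423) and the dotted line that of 2 libraries equally above it (0.184); tetrac points lie on the dashed line in 210 of 221 cases, and heteronemin points gather near and below the dotted line.

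The single library itself could be read back. If the deposited means are geometric and the other libraries sit at 33, its value follows from the mean, and all values from 1 library should be whole multiples of 1 count on the normalized scale. For tetrac, 210 of 210 values were whole multiples of a step of 0.822 (tolerance 0.05 of a step, plus the rounding of the printed mean). For the combination 147 of 148 were whole multiples of 1.32, the exception being LY96, the co-receptor MD-2. Under arithmetic means, the best step gave 64 of 210 and 58 of 148. The inferred counts ran from 41 to 186 with a median of 89 in the tetrac library, and from 33 to 102 with a median of 52 in the combination library. The 10 heteronemin members were too few to settle a step.

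**Figure D4:**
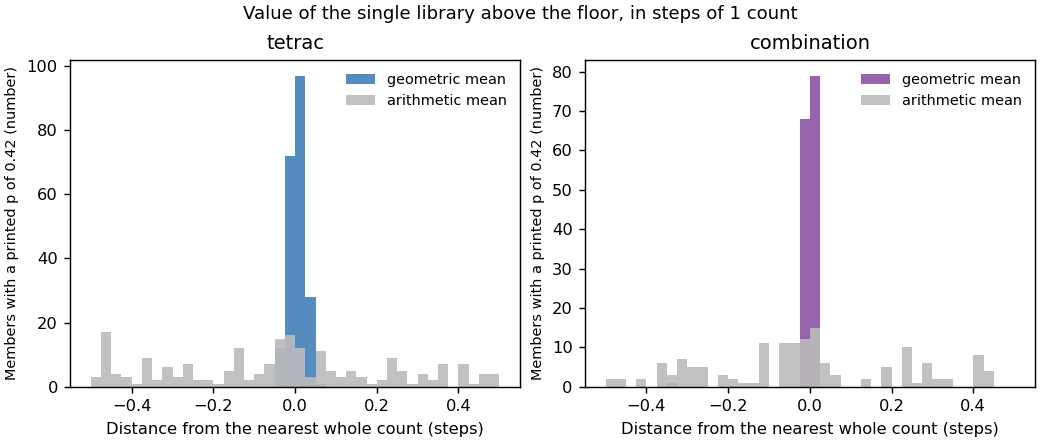
Distance of each inferred single-library value from the nearest whole count, in steps (horizontal axis), for members with a printed p of 0.42 after tetrac (left) and after the combination (right), assuming geometric (coloured) or arithmetic (grey) means. The geometric values gather at 0 in both panels and the arithmetic ones spread over the axis.

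S100A7, the psoriasin of inflamed skin, shows what this does to a mean. Its authors' mean was 55.0 after tetrac and 52.8 after the combination, and both p-values were 0.42 in the authors' deposited tables. Read as above, these correspond to 186 counts (153 normalized) in 1 tetrac library and 102 counts (135 normalized) in 1 combination library. The other libraries are then at 33. After heteronemin its mean was 85.6, with a p of 0.19 in the authors' deposited table. TPSB2, a mast cell tryptase with near-identical copies that the probe may share, had means of 97.9, 51.8 and 48.0 after heteronemin, tetrac and the combination. Its heteronemin p in the authors' deposited table was 0.18. Neither gene passed a test in any group, although both were among the 10 highest members after heteronemin.

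CC2D1B, the only housekeeping gene at the floor in control, is no member but had the same mark after tetrac. It lacked the mark in the other groups, where its p in the authors' deposited tables was 0.21 (heteronemin) and 0.3 (combination). Its mean of 43.2 after tetrac, with a p of 0.42 in the authors' deposited table, gives 74.0 normalized counts, which is 90 steps of the tetrac library. What set these single libraries apart was not tested.

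At an unadjusted p under 0.05 in the authors' deposited tables, 5 members were higher after heteronemin, 0 after tetrac and 1 with both agents. The same rule called 11.2% of all genes with a p higher with heteronemin, 0.28% with tetrac and 8.16% with the combination. Since the choice of members used the control side of each contrast, nothing is read from the members' counts against these shares. After Benjamini-Hochberg adjustment over each of the authors' deposited tables, 0 members passed 0.05 in any treatment, and the smallest adjusted p was 0.111, 0.650 and 0.0754 after heteronemin, tetrac and the combination.

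RUNX1T1, a corepressor best known as the fusion partner of RUNX1 in leukaemia, had the largest fold of the members. Its authors' mean was 33 in control, and 124, 53.3 and 52.2 after heteronemin, tetrac and the combination. The heteronemin value was at least 3.74-fold above control, with a p of 0.02 in the authors' deposited table. For tetrac and the combination, p was 0.32 and 0.21 in the authors' deposited tables. RUNX1T1 was also the only member at least 2-fold higher after heteronemin than after tetrac.

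PCOLCE, which enhances the trimming of procollagen, had means of 82.1, 47.5 and 46.5 after heteronemin, tetrac and the combination. Its rise after heteronemin was at least 2.48-fold (p = 0.03 in the authors' deposited table). Read as above, the tetrac mean of PCOLCE rested on 1 library at 98.7 (120 counts). CADM1, an immunoglobulin-type adhesion molecule, had means of 81.7, 49.2 and 50.4 in the same order. It was at least 2.47-fold higher after heteronemin (p = 0.02 in the authors' deposited table). By the same reading, its tetrac mean rested on 1 library at 109 (133 counts).

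HAS1, a hyaluronan synthase, was the only member called in more than 1 treatment. Its authors' means were 70.6, 37.6 and 45.2 after heteronemin, tetrac and the combination, with p of 0.04, 0.39 and 0.01 in the authors' deposited tables. The combination rise was the smaller, at least 1.36-fold against at least 2.13-fold after heteronemin. TBXA2R, the thromboxane receptor, had means of 64.4, 40.8 and 49.4, and was at least 1.95-fold higher after heteronemin (p = 0.02 in the authors' deposited table). Of these 5 genes only RUNX1T1 was in any of the gene lists.

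The 250 bases before the RefSeq start of HAS1, PCOLCE and TBXA2R are printed. The reason is that these genes were called higher after heteronemin at an unadjusted p under 0.05 in the authors' deposited table. CADM1, which had no promoter entry, and RUNX1T1 were also called but are named only. The windows are chr19:51723992-51724241 (minus strand), chr7:100602113-100602362 (plus strand) and chr19:3606876-3607125 (minus strand), all in GRCh38.p14, and capitals mark CpG.
HAS1: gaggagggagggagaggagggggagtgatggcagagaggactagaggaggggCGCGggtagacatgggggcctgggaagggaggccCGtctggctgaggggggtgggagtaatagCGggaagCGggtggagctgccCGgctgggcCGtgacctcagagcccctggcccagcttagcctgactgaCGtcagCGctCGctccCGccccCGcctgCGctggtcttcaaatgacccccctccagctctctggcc
PCOLCE: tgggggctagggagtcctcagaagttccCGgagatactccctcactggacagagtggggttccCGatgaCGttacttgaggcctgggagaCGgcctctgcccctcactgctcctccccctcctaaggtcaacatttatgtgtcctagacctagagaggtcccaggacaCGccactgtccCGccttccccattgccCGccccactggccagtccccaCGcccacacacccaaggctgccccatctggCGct
TBXA2R: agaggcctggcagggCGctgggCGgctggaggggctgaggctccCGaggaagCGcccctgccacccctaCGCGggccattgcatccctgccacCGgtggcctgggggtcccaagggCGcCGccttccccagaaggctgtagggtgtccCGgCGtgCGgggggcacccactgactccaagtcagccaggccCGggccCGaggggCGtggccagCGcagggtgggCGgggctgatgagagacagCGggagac
They hold 13, 9 and 18 CpG dinucleotides at a GC content of 69.2%, 62.8% and 74.4%. All 3 have less CpG in 250 bases than the COL4A1-COL4A2 stretch has in 126, and these few sequences say nothing of the members as a whole. Promoter entries were matched for 185 of 277 members, too few for a comparison of base composition, which is void for that reason.

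The 51 members with a heteronemin p of 0.17 or less in the authors' deposited table had means from 40.97 to 124 with a median of 70.0. Among the same 51 genes, the tetrac mean had a median of 46.2 and the combination mean one of 46.3. The heteronemin values chose these genes, so a higher heteronemin mean is in part built into the choice. In the authors' deposited table for tetrac, 41 of the 51 had a p of 0.42 and 1 was at the floor. In that for the combination, 20 had a p of 0.42 and 3 were at the floor.

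**Figure D5:**
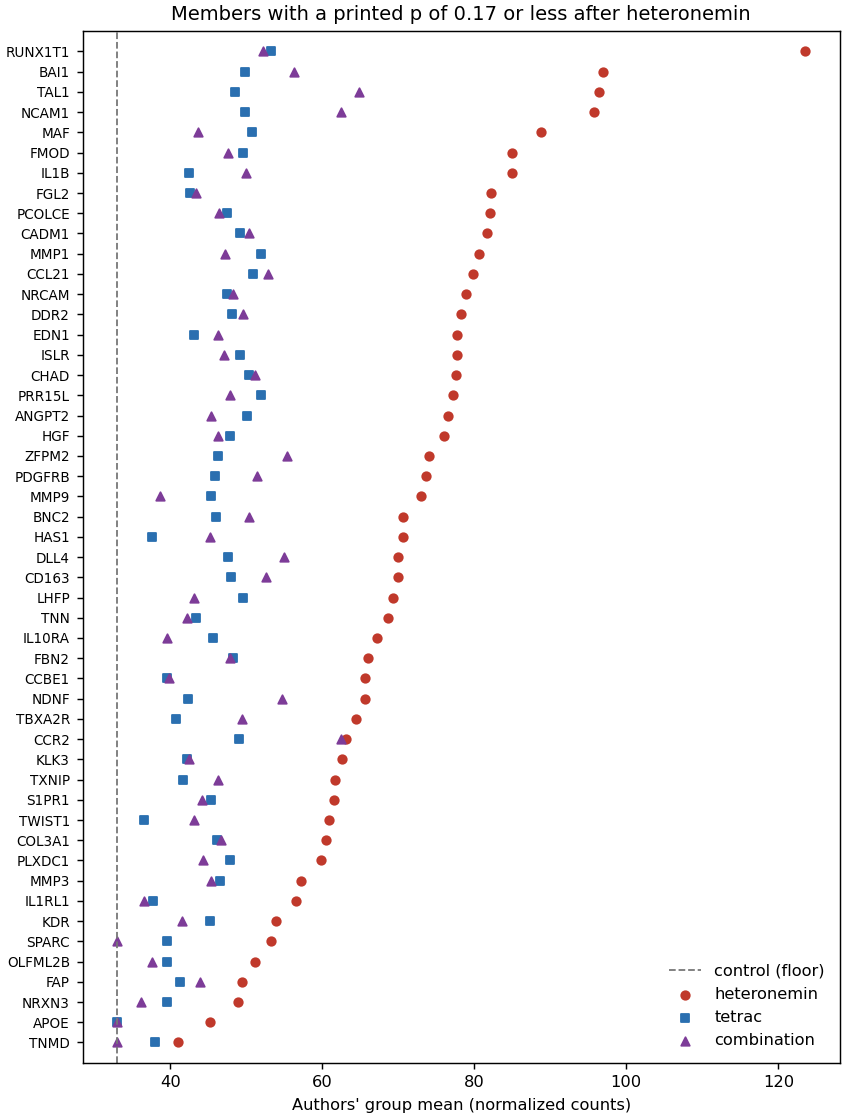
Authors' group mean in normalized counts (horizontal axis) of 50 of the 51 members with a printed p of 0.17 or less after heteronemin, for heteronemin (circles), tetrac (squares) and the combination (triangles), with the control floor of 33 dashed. Heteronemin is the highest mean in each gene shown, which the choice of genes by their heteronemin p favours. CCR2 is the gene where the combination comes closest, at 62.5 against 63.1.

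Of 8 members among the transcription factors of development, 8, 7 and 6 were above the floor after heteronemin, tetrac and the combination, with median means of 74.9, 49.0 and 46.0. TAL1, a factor of blood and endothelial precursors, had means of 96.5, 48.6 and 64.8, with p of 0.07, 0.42 and 0.08 in the authors' deposited tables. MAF, a basic leucine zipper factor, had means of 88.8, 50.8 and 43.7, and only its heteronemin p of 0.09 was under 0.42 in the authors' deposited tables. TBX4, a limb and lung factor, had means of 80.5, 49.4 and 48.2 and a heteronemin p of 0.18 in the authors' deposited table. SOX2 was above the floor only after heteronemin, at 38.5, with a p of 0.42 in the authors' deposited table.

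Among inflammatory ligands and receptors, all 9 interleukin and interferon members were above the floor after heteronemin and tetrac, and 8 after the combination. IL1B, a pyrogenic cytokine, had means of 84.9, 42.5 and 49.97 after heteronemin, tetrac and the combination, with a heteronemin p of 0.07 in the authors' deposited table. IL10RA, the ligand-binding chain of the interleukin-10 receptor, had means of 67.2, 45.6 and 39.6 and a heteronemin p of 0.06 in the authors' deposited table. Chemokine members above the floor numbered 11 of 13 in each treated group. CCL21, a lymph node chemokine, read 79.8, 50.9 and 52.9, and the inflammatory receptor CCR2 read 63.1, 49.1 and 62.5. CX3CL1 ran the other way, at 33.7, 39.9 and 41.9 after heteronemin, tetrac and the combination, each with a p of 0.42 in the authors' deposited tables.

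The metalloproteinase members include MMP10, MMP1, MMP3, MMP12 and MMP13, which lie side by side on chromosome 11 with no other protein-coding gene between them. MMP1, the interstitial collagenase, had means of 80.6, 51.9 and 47.2 after heteronemin, tetrac and the combination (heteronemin p = 0.05 in the authors' deposited table). MMP3, a stromelysin, had 57.2, 46.6 and 45.4, and MMP13, a second collagenase by function, had 66.9, 45.2 and 50.1. MMP12, the macrophage elastase, was at 33 after heteronemin and at 37.1 and 36.2 in the others, and MMP10 did not leave the floor. Heteronemin thus gave the highest mean for MMP1, MMP3 and MMP13 and the lowest treated mean for MMP12. Both MMP12 means above the floor had a p of 0.42 in the authors' deposited tables. The gelatinase MMP9, which lies elsewhere, had means of 73.0, 45.3 and 38.6 with a heteronemin p of 0.11 in the authors' deposited table.

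Of the vascular genes, 7 of 10 members of the angiopoietin, TIE and VEGF list were above the floor with heteronemin, 8 with tetrac and 7 with the combination. ANGPT2, an antagonist of the TEK receptor in many settings, had means of 76.5, 50.1 and 45.4 (heteronemin p = 0.06 in the authors' deposited table). PDGFRB, the receptor of pericytes and fibroblasts, had 73.7, 45.9 and 51.5 (heteronemin p = 0.05 in the authors' deposited table). KDR, the main VEGF receptor of endothelium, had 53.9, 45.2 and 41.6. DLL4, a Notch ligand of sprouting vessels, read 70.0, 47.7 and 54.9, with p of 0.06, 0.42 and 0.15 in the authors' deposited tables. BAI1, an inhibitor of angiogenesis now named ADGRB1, read 96.9, 49.8 and 56.2, with p of 0.06, 0.42 and 0.14 in the authors' deposited tables. VEGFC ran the other way, at 34.97, 38.95 and 42.41, each with a p of 0.42 in the authors' deposited tables. FLT4 was above the floor only after tetrac, at 38.35. Of 17 members among the endothelial markers, 11, 16 and 13 were above the floor after heteronemin, tetrac and the combination.

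Matrix genes formed the longest list, with 27 members of 48 measured. Above the floor were 22, 23 and 20 after heteronemin, tetrac and the combination, with medians over all 27 of 53.3, 43.4 and 41.6. FMOD, the collagen-binding proteoglycan fibromodulin, had means of 84.9, 49.6 and 47.6 (heteronemin p = 0.09 in the authors' deposited table), and its chromosomal neighbour PRELP had 55.9, 45.0 and 45.2. SPARC, a secreted collagen chaperone, had 53.3 after heteronemin and 39.5 after tetrac and was at the floor after the combination. Of the collagens, COL3A1, the fibrillar chain of reticular fibres, had 60.5, 46.2 and 46.8, and COL1A2 had 36.9 after heteronemin. The collagen list, with 3 of its 6 members always at the floor, had medians of 34.9, 33.6 and 33.

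EMT genes split into those above the floor and those always at it. Of 17 members, 12 were above the floor in each treated group, though not the same 12, and 4 (CDH2, KRT14, TFPI2 and ZEB2) were at it throughout. SPARC was at the floor after the combination, and SNAI2 was above it there only. TWIST1 had means of 60.9, 36.6 and 43.1, with p of 0.06, 0.19 and 0.23 in the authors' deposited tables. Its tetrac p is the lowest of any member in the authors' deposited table for tetrac. TWIST2 read 64.5, 44.6 and 40.7, and SNAI2 read 36.6 after the combination. All 4 WNT list members were above the floor in every treated group, WNT5B at 75.9, 51.1 and 46.1 and WNT5A, a non-canonical ligand, at 62.8, 46.5 and 45.6, with heteronemin p of 0.18 in the authors' deposited table for both.

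NCAM1, the neural cell adhesion molecule, had means of 95.8, 49.8 and 62.5, with p of 0.06, 0.37 and 0.20 in the authors' deposited tables. Of the integrins, ITGA8 had 60.9, 45.3 and 45.9, ITGB2, the shared leukocyte subunit, had 49.3, 41.4 and 42.1, and ITGA9 was lower after heteronemin (35.3) than after tetrac (46.7) or the combination (43.2). In the authors' deposited tables all these ITGA9 values had a p of 0.42, which, read as above, means 1 library each. For heteronemin that reading is the weaker, since the members with this p were too few to settle a step.

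In the authors' deposited table for the combination, 7 members had a p of 0.17 or less, namely HAS1 (0.01), NDNF (0.06), TAL1 (0.08), BAI1 and CCR2 (0.14), DLL4 (0.15) and TCF4 (0.16). All but TCF4, a basic helix-loop-helix factor, were also among the 51 heteronemin members. Without a share of all genes at this cut, nothing is read from the overlap. NDNF, a secreted neurotrophic factor, had means of 65.7, 42.4 and 54.7 after heteronemin, tetrac and the combination. The heteronemin and combination values were set against the same control libraries.

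Between treated groups, which the deposited tables do not test, heteronemin gave the highest mean in 201 members, tetrac in 16 and the combination in 10. Heteronemin was at least 1.5-fold above tetrac in 41 members and above the combination in 44, while 14.5% and 9.61% of all 770 genes met the same conditions. In the other 4 directions 0 members reached 1.5-fold, against 1.69% of all genes for tetrac over heteronemin, 1.69% for tetrac over the combination, 0.26% for the combination over heteronemin and 4.81% for the combination over tetrac. The members' median ratio was 1.20 for heteronemin over tetrac, 1.24 for heteronemin over the combination and 1 for tetrac over the combination. Only 5 members had a mean of at least 50 in all 3 treated groups, namely SV2B, CHAD, CCL21, S100A7 and RUNX1T1. SV2B, a synaptic vesicle protein, was the most even of them, at 63.0, 51.1 and 53.2 after heteronemin, tetrac and the combination.

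Markers of other cell types are in part members, which could only stay or rise, so their sums are given with and without members. The summed authors' means of the 24 endothelial markers were 875 in control, 1353, 1061 and 1117 after heteronemin, tetrac and the combination, where 792 would be all at the floor, and 17, 6, 2 and 4 of them were at 33. PECAM1, a defining endothelial marker and no member, read 33.3 in control and 39.3, 33 and 40.6 in the treated groups. The 31 fibroblast and stromal markers summed to 1323, 2065, 1604 and 1590, with 21, 1, 1 and 5 at 33. The 19 blood and immune markers summed to 1202, 1471, 1341 and 1305, with 12, 3, 2 and 3 at 33. The 34 epithelial genes summed to 15880, 14010, 14880 and 15050. Among treated groups the sum over the whole panel was lowest after heteronemin, at 280500, against 306900 after tetrac and 297700 after the combination, while the geometric mean of the housekeeping genes lay between 296 and 300 (296.1, 299.5 and 297.5). Without members, the 7 other endothelial markers summed to 314, 526, 369 and 422, the 10 other fibroblast and stromal markers to 630, 933, 743 and 725, and the 7 other blood and immune markers to 806, 824, 832 and 805. Not all were higher: FBLN1, a stromal matrix protein, read 176 in control and 126, 180 and 116 in the treated groups. The 4 muscle and contractile genes summed to 1898, 1442, 1714 and 1575, with 2, 0, 0 and 1 at 33. TPM2 alone made up most of each sum, at 1785, 1256, 1575 and 1452. The median of the 4 genes went the other way, at 39.9 in control and 70.05, 51.1 and 44.8 in the treated groups. Without members, the 2 other muscle and contractile genes, TPM2 being 1 of them, summed to 1832, 1341, 1634 and 1500. The part of any of these in the members' rise was not tested.

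The condition that chose the members has close neighbours on its other side. Just above it, CEACAM1 had a control mean of 33.1, and FBN1, PIK3R5, DCN, IL6, INHBE, GZMK and MEOX2 had 33.2. INHBE, an activin subunit, then read 82.7, 46.9 and 52.3 after heteronemin, tetrac and the combination, much like many members, while FBN1 read 33 in all 3. Of the 462 endogenous genes above the floor in control, 4 were at it with heteronemin, 5 with tetrac and 6 with the combination.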

How the data were processed

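Per the series' design text, raw nCounter counts were normalized by the authors with nSolver 4.0, using a positive control factor per sample. The deposited tables, 1 per treatment, give the authors' group means as normalized signal, signed fold changes as a score, and a p-value against control printed to 2 decimals; neither the test nor the rule behind the floor of 33 is given in the sources used here. No values per sample were used, so nothing could be refitted. Members, lists and readings of the data were chosen with earlier results of these data known; the integrin list was corrected after its values were seen, dropping ITGB1BP1, which is no integrin. Named genes were those called, the highest 10 per treatment, up to 4 per list, those always at the floor and those with extreme or nearest treated means; a few others (chromosomal neighbours, genes of a single pattern, edge genes) were named after their values were seen. Folds are ratios of means, called "at least" only where all 3 treated libraries were read as above the floor. P-values were adjusted over all genes of a table that have one. Single-library values were computed as the cube of the mean over the squared floor and fitted by 1 step between 0.5 and 2. Python 3.11.15, numpy 2.4.6, pandas 2.3.3, scipy 1.17.1 and matplotlib 3.10.9 were used. Of 277 symbols, 272 were current in RefSeq. The values of 1 member are not reported here.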

Additional observations from a re-analysis of the deposited data

How the results depend on the processing

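The members numbered 314 with a control mean up to 35, and 278 with the housekeeping gene or with ITGB3 added. Genes at the floor in all 4 groups rose from 50 to 61 with means up to 35 and to 85 with means up to 40. A stricter level moved the counts above the floor: at least 66 left 55 members after heteronemin and 0 after tetrac or the combination, and at least 50 left 13 after tetrac and 20 after the combination. Counting members above the floor in at least 1 library besides one (leave-one-out by the printed p, chosen after seeing the data) gave 201, 11 and 45 for heteronemin, tetrac and the combination, against 211, 221 and 193. An unadjusted p under 0.10 in the authors' deposited tables called 25 members after heteronemin and 3 after the combination, and 0 after tetrac. Benjamini-Hochberg adjustment, from the printed p or the largest p that rounds to it, called 0 in each. With a 2-fold minimum as well as p under 0.05, 4 members were called after heteronemin and 0 after the combination. Shares of all genes are not given for these settings, so nothing is read from these counts. The median log2 difference after heteronemin, tetrac and the combination was 0.63, 0.32 and 0.31 with housekeeping scaling, 0.86, 0.44 and 0.47 with panel sum scaling, and 0.49, 0.25 and 0.24 with 10 added to both means. At 2-fold, 1 member was higher after heteronemin than after tetrac and 3 than after the combination. Housekeeping scaling gave 47 and 45 at 1.5-fold. These counts also stand without a share of all genes at the same setting. Members could only stay or rise from the floor, so that no result changed sign carries no information. The order of treatments did change. With a level of at least 40, heteronemin (189) exceeded tetrac (154) and the combination (149). With panel sum scaling the combination's median exceeded that of tetrac. No paired analysis was possible because the tables hold only group means. Depth per sample is unknown, and the floor hides any difference below 33 normalized counts. Under the single-library reading, the lowest whole value was 41 counts (33.69 normalized) in the tetrac library. In the combination library it was 33 counts (43.6 normalized). The level that is hidden may thus differ between libraries, and with it the number of members above the floor, which was not tested.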
